A study of Mus musculus with 8 samples.

Results

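The genes of the glutathione, peroxiredoxin and thioredoxin systems were followed in bulk RNA sequencing of adult mouse testis. They were chosen by name, with earlier results of these data known. The names were the symbols of the glutathione S-transferases (Gst, Mgst), glutathione peroxidases (Gpx), peroxiredoxins (Prdx), thioredoxins (Txn), thioredoxin domain proteins (Txndc), thioredoxin reductases (Txnrd) and superoxide dismutases (Sod), with catalase (Cat), glutathione reductase (Gsr) and glutathione synthetase (Gss). Pseudogene names were left out and at least 20 counts over all libraries were required. This gave 55 genes of the 56748 rows of the count table, of which 27485 rows reached 20 counts. A further 4 names matched but fell short of it: Gsta1 with 2 counts in all, Gpx2 with 5, Gstp3 with 7 and Gpx5, an enzyme secreted by the epididymis, with 12.

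The knockout group held 4 libraries of adult testis labelled Ssty2-/- and the wild-type group 4 libraries of adult testis labelled WT. The sources used here do not give the strain, the exact age or how the knockout was made. Since the labels do not say that libraries came from separate animals, a p-value refers only to the spread among these libraries. Ssty2 is a multicopy Y-linked gene, active in spermatids. Its row held 0 counts in the knockout libraries, which allows up to 0.166 CPM (counts scaled for library size) in the shallowest of them, against 262 counts in the wild-type libraries, or 2.92 ± 0.552 CPM (SD, n = 4). Library totals ran from 18036708 to 22639737 counts in knockout and from 18763650 to 24415587 counts in wild type.

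Glutathione and thioredoxin are the main thiol reductants of the cell. Glutathione is spent by the peroxidases and transferases, and its oxidised form is brought back by glutathione reductase. Thioredoxin, brought back by thioredoxin reductases, serves most peroxiredoxins and disulfide exchange. Both systems draw on NADPH. Maturing spermatids make, beside the widely expressed enzymes of these systems, forms found mainly in the male germ line, and sperm use some of them to cross-link proteins of the tail and nucleus as well as to remove peroxides.

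In Ssty2 knockout testis the transferases, peroxidases, peroxiredoxins, thioredoxin domain proteins and thioredoxin reductases each had members called higher and members called lower. The genes that rose were the sperm thioredoxins Txndc2 and Txndc8, the thioredoxin domain gene Txndc9, the reductase Txnrd3, the transferases Gstm5, Gstt4 and Gsto2, the peroxidases Gpx4 and Gpx6 and the X-linked peroxiredoxin Prdx4, by 0.15 to 0.53 on the log2 scale. Among the genes that fell, thioredoxin itself (Txn1), the peroxidase Gpx1, the peroxiredoxins Prdx1, Prdx2 and Prdx3, and the transferases Mgst1, Gsta3, Gsta4, Gstm1 and Gstm2 fell by 0.65 to 1.08 on that scale. Superoxide dismutases Sod1 and Sod2, the reductase Txnrd1 and Prdx6 did not pass the test in either direction, although with another scaling of the libraries, to their totals, Sod2 and Prdx6 were called lower. With that scaling Gpx4, Gsto2 and Txndc9, among the genes that rose, were no longer called. Txndc9 lost the call in 10 of 14 alternative settings and Gpx4 in 5.

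Of the 55 genes, 53 had enough counts to be tested, the exceptions being Gstm3 with 23 counts and Gstp2 with 38. By edgeR's quasi-likelihood test with Benjamini-Hochberg adjustment over the 21952 genes tested and a threshold of 0.05, 10 of the 53 were higher in knockout (18.9%), 24 were lower (45.3%) and 19 did not pass. Over all tested genes the same rule called 26.2% higher and 27.4% lower (53.5% in either direction), so the share called higher lay below that background and the share called lower above it. The median log2 fold change of the 53 genes was -0.20, beside -0.01 over all tested genes. With libraries scaled to their totals in place of the trimmed mean of M-values (TMM), 7 were called higher and 32 lower. The median of the 53 genes was then -0.35. That scaling moved the median of all tested genes by -0.14, to -0.15. The shares of all tested genes called with that scaling were not computed, so the 7 and 32 cannot be set against the shares above. No fold change of a called gene changed sign under any scaling.

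All knockout libraries lay above all wild-type libraries for 9 of the genes and below them for 24, beside 22.7% and 24.0% of all tested genes (46.7% in either direction). The called rises ran from 0.15 to 0.53 and the called falls from -0.42 to -1.08. Mgst1 alone was called and past 2-fold, a line that 7.83% of all tested genes passed. The median coefficient of variation of the tested genes was 6.72% among knockout libraries and 6.27% among wild-type libraries.

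**Figure D1:**
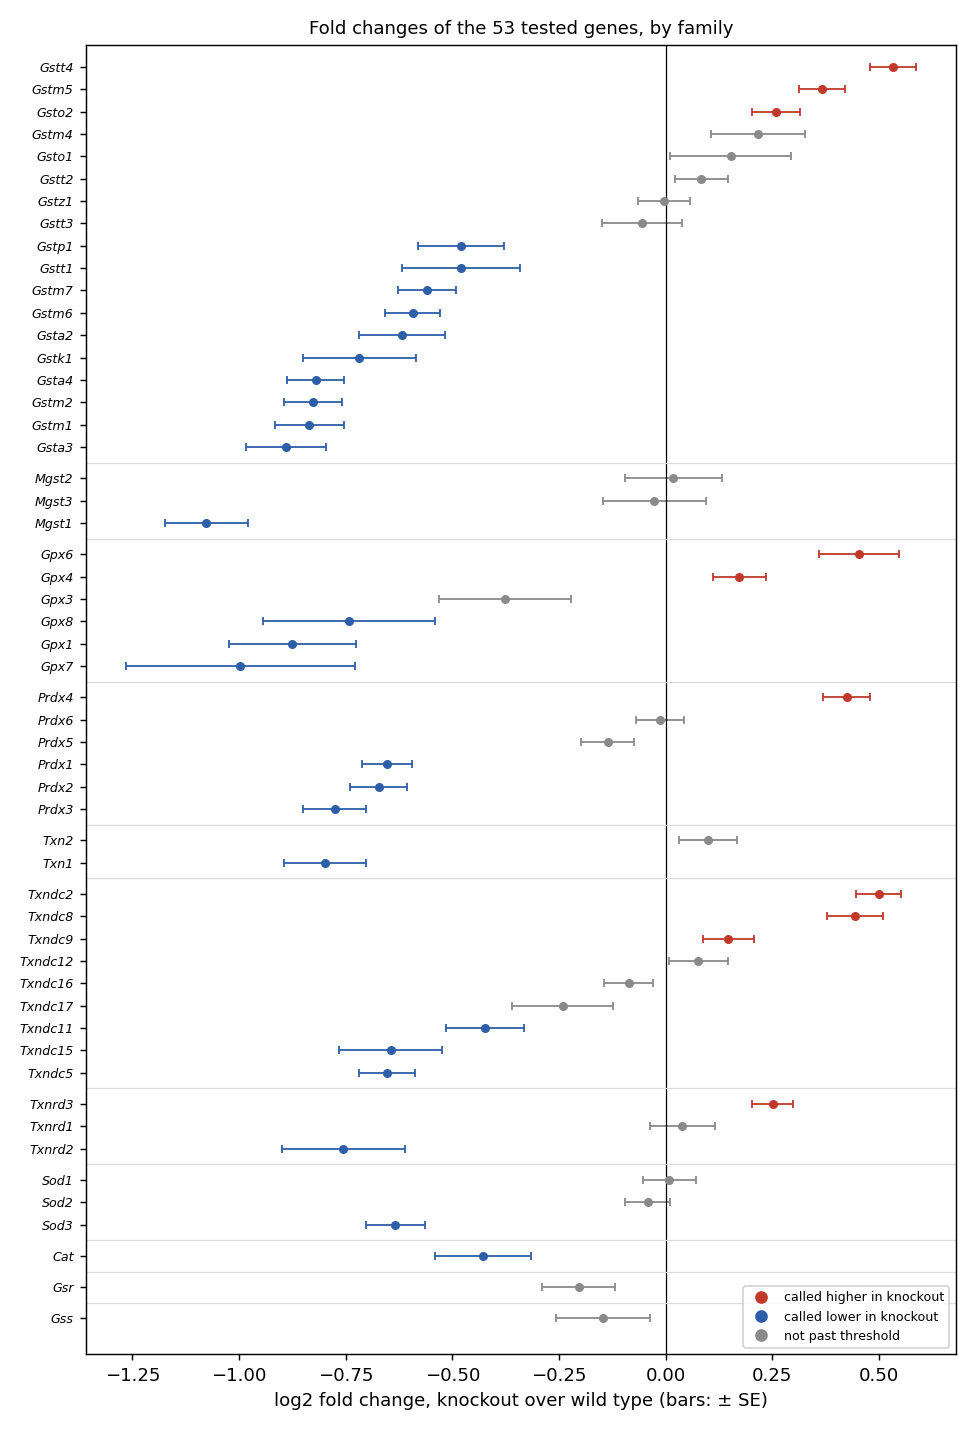
Log2 fold change of the 53 tested genes, knockout over wild type, with bars of 1 SE, grouped by family and ordered within each. Red and blue points mark genes called higher and lower in knockout by edgeR and grey points those that did not pass; the blue points reach from -0.42 down to Mgst1 at -1.08, and the red ones up to Gstt4 at 0.53.

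Markers of the cells of the testis also differed between the groups, and in a bulk sample fewer cells of a type and less RNA per cell cannot be told apart. Of the round spermatid markers 15 of 15 were called higher, with a summed level of 4489.9 to 4607 CPM in knockout and 2917 to 3339 CPM in wild type, and of the elongating spermatid markers 13 of 14, at 23302 to 26661 CPM in knockout and 14919 to 18313 CPM in wild type. Sertoli cell markers were called lower in 14 of 15 cases (1215 to 1380.3 CPM in knockout and 1851 to 2073 CPM in wild type), Leydig cell markers in 12 of 12 (1395 to 1594 CPM in knockout and 2739 to 2979 CPM in wild type) and macrophage markers in 10 of 12 (88.97 to 114 CPM in knockout and 138 to 158 CPM in wild type). Spermatogonial markers were lower for 11 and higher for 1 of 15 (751 to 798 CPM in knockout and 798 to 914 CPM in wild type), and spermatocyte markers lower for 6 of 14 (1789.6 to 2005 CPM in knockout and 2006 to 2329 CPM in wild type). Peritubular myoid markers were lower for 7 and higher for 1 of 10 (407 to 446 CPM in knockout and 405 to 437 CPM in wild type) and endothelial markers lower for 3 of 10 (38.1 to 47.99 CPM in knockout and 45.4 to 50.7 CPM in wild type). The 4 tested erythroid markers did not pass (26.6 to 39.99 CPM in knockout and 29.5 to 34.6 CPM in wild type), and 3 of 4 tested epididymal markers were lower (23.8 to 26.1 CPM in knockout and 26.9 to 39.3 CPM in wild type), with Lcn10 at 0 counts in both groups. Over all tested genes 26.2% were called higher and 27.4% lower, and the endothelial count lay near that share. Many but not all of these markers differed between the groups along with the genes described here. The part of the markers in each result was not tested.

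Glutathione itself is joined from its parts by Gss in the last of its synthetic steps, and oxidised glutathione is reduced by Gsr. Gss, a low-level gene, measured 7.19, 7.18, 7.48 and 7.74 CPM in the knockout libraries, against 7.57, 9.14, 8.06 and 7.93 CPM in the wild-type libraries. The groups overlapped and the gene did not pass (log2 fold change -0.15, SE 0.11, edgeR adjusted p = 0.279). Gsr had 21.8, 24.4, 25.3 and 21.7 CPM in the knockout libraries, against 23.8, 27.9, 25.9 and 29.7 CPM in the wild-type libraries. The wild-type libraries were mostly higher but the groups overlapped, and the difference did not pass (log2 fold change -0.20, SE 0.085, edgeR adjusted p = 0.0532). Without knockout library 3 the adjusted p was 0.0383, and without wild-type library 1 it was 0.0192. It also passed with library totals (0.00308), with at least 1 CPM required in 4 libraries (0.0419) and with the replicate number as a block (0.0432), as adjusted p by edgeR.

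The glutathione peroxidases reduce hydrogen peroxide and lipid peroxides with glutathione. Some are selenoproteins, in which a TGA codon that normally ends translation is read as selenocysteine at the active site, and others carry cysteine there. The windows of 27 coding bases around that codon are shown because they separate the members by this chemistry, with the active-site codon in capitals. The sequences are from GENCODE vM21 transcripts. The codon was located in an alignment of the coding bases of these genes, at the column of the TGA of Gpx1.
Gpx1: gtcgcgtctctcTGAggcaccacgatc
Gpx3: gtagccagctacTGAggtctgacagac
Gpx4: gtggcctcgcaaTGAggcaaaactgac
Gpx6: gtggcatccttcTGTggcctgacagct
Gpx7: gtagctagcgaaTGTggcttcacagac
Gpx8: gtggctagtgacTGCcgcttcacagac

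The directions did not follow that codon. Of the TGA forms Gpx4 was called higher, Gpx1 lower and Gpx3 did not pass, and of the cysteine forms Gpx6 (TGT) was higher while Gpx7 (TGT) and Gpx8 (TGC) were lower. Gpx4 (ENSMUSG00000075706, chromosome 10), the phospholipid hydroperoxidase that hardens into the capsule of sperm mitochondria, had 1388, 1254, 1203 and 1341 CPM in the knockout libraries, against 1205, 1018, 1177 and 1199 CPM in the wild-type libraries. The lowest knockout library lay just under the highest wild-type library. Its rise was small (log2 fold change 0.17, SE 0.062, edgeR adjusted p = 0.0270) and lost the call without knockout library 1 (adjusted p = 0.0738 by edgeR), without knockout library 4 (0.0714), without wild-type library 2 (0.109) or without wild-type library 3 (0.0522), and with library totals (0.657). Of the 31-base words of Gpx4 transcripts 38.9% also occur in other genes, nearly all in the pseudogene row Gpx4-ps2, which averaged 41.1 ± 0.480 CPM in knockout and 35.4 ± 2.29 CPM in wild type (n = 4 each), so the split of reads between these rows is uncertain.

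Gpx1 (ENSMUSG00000063856, chromosome 9), the widely expressed cytosolic form, was present at a few CPM only. It had 3.38, 2.77, 2.56 and 3.20 CPM in the knockout libraries, against 4.68, 5.51, 5.69 and 5.87 CPM in the wild-type libraries. Each knockout library lay below each wild-type library (log2 fold change -0.87, SE 0.15, edgeR adjusted p = 1.32e-04). Gpx7 and Gpx8, both residents of the endoplasmic reticulum, were lower still in level. Gpx7 averaged 0.940 ± 0.355 CPM in knockout and 1.86 ± 0.189 CPM in wild type (SD, n = 4 each; log2 fold change -0.997, SE 0.27, edgeR adjusted p = 0.00513) and Gpx8 averaged 1.99 ± 0.537 CPM in knockout and 3.29 ± 0.401 CPM in wild type (log2 fold change -0.74, SE 0.20, edgeR adjusted p = 0.00542). In both, all knockout libraries stood below all wild-type libraries.

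Gpx6, known from the olfactory epithelium of rodents, had 40.4, 43.4, 32.1 and 33.5 CPM in the knockout libraries, against 29.4, 24.9, 27.5 and 27.4 CPM in the wild-type libraries. Knockout libraries 1 and 2 were the highest, and the groups did not overlap (log2 fold change 0.45, SE 0.094, edgeR adjusted p = 7.13e-04). Gpx3, the secreted plasma form, averaged 9.65 ± 1.87 CPM in knockout and 12.4 ± 2.58 CPM in wild type, with overlapping groups, and missed the threshold by little (log2 fold change -0.38, SE 0.15, edgeR adjusted p = 0.0506). It passed without knockout library 1 (adjusted p = 0.0318 by edgeR), knockout library 4 (0.0236), wild-type library 1 (0.0480) or wild-type library 4 (0.0126). It also passed with library totals (0.0109), with at least 1 CPM required in 4 libraries (0.0453) and with no filter on low counts (0.00575), as adjusted p by edgeR. The 6 peroxidases, with Gpx4 as by far the largest part, summed to 1349 ± 87.7 CPM in knockout and 1199.9 ± 89.2 CPM in wild type.

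Superoxide dismutases turn superoxide into hydrogen peroxide, which catalase breaks down in peroxisomes. The intracellular dismutases did not pass the test. Sod1, the copper-zinc enzyme of the cytosol, had 207, 179, 189.9 and 183 CPM in the knockout libraries, against 208, 183, 179 and 185 CPM in the wild-type libraries, and the groups overlapped almost entirely (log2 fold change 0.0086, SE 0.062, edgeR adjusted p = 0.918). Sod2, the manganese enzyme of mitochondria, averaged 86.9 ± 1.70 CPM in knockout and 89.5 ± 3.33 CPM in wild type (log2 fold change -0.042, SE 0.054, edgeR adjusted p = 0.526); 26.7% of its words occur in other genes. The extracellular Sod3 had 33.7, 29.6, 33.4 and 30.4 CPM in the knockout libraries, against 47.4, 47.5, 50.8 and 51.5 CPM in the wild-type libraries. Its groups stood well apart (log2 fold change -0.63, SE 0.069, edgeR adjusted p = 1.61e-06). Catalase had 11.7, 9.72, 12.8 and 13.04 CPM in the knockout libraries, against 14.1, 16.7, 18.1 and 14.6 CPM in the wild-type libraries, with every knockout library below every wild-type library (log2 fold change -0.43, SE 0.11, edgeR adjusted p = 0.00423).

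Glutathione S-transferases join glutathione to electrophiles and are sorted into classes by sequence. Of the 18 tested, 3 were higher, 10 lower and 5 did not pass, beside 26.2% called higher and 27.4% called lower over all tested genes. The summed level was 3382 ± 71.2 CPM in knockout and 3353 ± 61.1 CPM in wild type, and the library ranges of the sums overlapped. The 3 rises were in abundant genes, and most of the 10 falls were in less abundant ones.

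The mu class carried most of that total. Gstm5 (ENSMUSG00000004032, chromosome 3), the mu-class form known for its expression in testis and brain, had 1966, 1999.7, 1762 and 1982 CPM in the knockout libraries, against 1454, 1434, 1595 and 1495 CPM in the wild-type libraries. It was the most abundant gene of the whole collection per length of exon, at 1508 CPM per kb in knockout and 1169 in wild type. Knockout library 3 was the lowest of its group and still above all wild-type libraries (log2 fold change 0.37, SE 0.054, edgeR adjusted p = 3.62e-05). Gstm1 (ENSMUSG00000058135, chromosome 3), the main mu-class enzyme of liver, had 350.4, 314, 422 and 314 CPM in the knockout libraries, against 589.7, 663, 592 and 655 CPM in the wild-type libraries. Its groups were separated by a wide gap (log2 fold change -0.84, SE 0.081, edgeR adjusted p = 5.18e-07). Gstm2 (ENSMUSG00000040562, chromosome 3) gave a like picture, with 207, 173, 217 and 192 CPM in the knockout libraries, against 334, 369.8, 329 and 369.6 CPM in the wild-type libraries. No library of one group entered the range of the other (log2 fold change -0.83, SE 0.068, edgeR adjusted p = 9.84e-08). Gstm6 and Gstm7 were called lower as well, by 0.59 and 0.56 on the log2 scale, while Gstm4 did not pass, at 12.5 ± 1.31 CPM in knockout and 10.8 ± 1.24 CPM in wild type (log2 fold change 0.22, SE 0.11, edgeR adjusted p = 0.110). Of the words of Gstm1 28.8% are shared with other genes, of Gstm2 12.2% and of Gstm5 11.1%, so reads may have been split among these rows or their pseudogenes.

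The theta and omega classes held the other rises. Gstt4 (ENSMUSG00000009093, chromosome 10) had 316, 322, 294 and 324 CPM in the knockout libraries, against 228, 201, 222 and 216 CPM in the wild-type libraries. The highest wild-type library was far under the lowest knockout library, and this was the largest rise among the 53 genes tested (log2 fold change 0.53, SE 0.054, edgeR adjusted p = 9.08e-07); none of its words occur in other genes. Gsto2, an omega-class enzyme that reduces dehydroascorbate, had 255, 246, 227 and 243 CPM in the knockout libraries, against 215, 187, 205 and 204 CPM in the wild-type libraries. The groups did not overlap but came close (log2 fold change 0.26, SE 0.056, edgeR adjusted p = 0.00104), and with library totals the adjusted p was 0.0659 by edgeR. Other members of these classes did otherwise: Gstt1 was called lower, at 3.43 ± 0.163 CPM in knockout and 4.77 ± 0.413 CPM in wild type (log2 fold change -0.48, SE 0.14, edgeR adjusted p = 0.00825), and Gstt2, Gstt3 and Gsto1 did not pass, with log2 fold changes of 0.083, -0.055 and 0.15.

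The alpha class was lower throughout its 3 tested genes. Gsta3 (ENSMUSG00000025934, chromosome 1) had 36.5, 31.8, 34.6 and 26.6 CPM in the knockout libraries, against 51.6, 65.6, 62.9 and 60.3 CPM in the wild-type libraries. All knockout libraries were below the lowest wild-type library (log2 fold change -0.89, SE 0.094, edgeR adjusted p = 1.24e-06). In human steroid-making tissue the alpha-class GSTA3 also acts as a steroid isomerase. Gsta4, which conjugates the lipid peroxidation product hydroxynonenal, had 38.3, 37.8, 37.9 and 41.97 CPM in the knockout libraries, against 67.9, 74.6, 64.3 and 68.6 CPM in the wild-type libraries. Its wild-type libraries stood well above all knockout libraries (log2 fold change -0.82, SE 0.066, edgeR adjusted p = 8.05e-08). Gsta2 was called lower by 0.62 on the log2 scale, but 60.7% of its words occur in other genes and its reads cannot be assigned with certainty.

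The kappa-class Gstk1 of mitochondria and peroxisomes was called lower, at 6.07 ± 0.995 CPM in knockout and 9.98 ± 1.09 CPM in wild type (log2 fold change -0.72, SE 0.13, edgeR adjusted p = 2.87e-04). The pi-class Gstp1 had 14.4, 14.1, 17.4 and 14.5 CPM in the knockout libraries, against 21.8, 22.7, 22.3 and 17.5 CPM in the wild-type libraries. Knockout library 3 came just under wild-type library 4, and the groups did not overlap (log2 fold change -0.48, SE 0.10, edgeR adjusted p = 8.05e-04); 38.5% of its words occur in other genes. Gstz1, an isomerase of tyrosine breakdown, averaged 49.9 ± 1.88 CPM in knockout and 50.1 ± 1.84 CPM in wild type and did not pass (edgeR adjusted p = 0.954).

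The microsomal transferases are membrane proteins of another fold. Mgst1 (ENSMUSG00000008540, chromosome 6), of the endoplasmic reticulum and outer mitochondrial membrane, had 19.2, 25.2, 25.6 and 25.6 CPM in the knockout libraries, against 44.2, 55.5, 47.6 and 54.3 CPM in the wild-type libraries. The knockout level was 47.4% of the wild-type level, and all knockout libraries were well below all wild-type libraries (log2 fold change -1.08, SE 0.097, edgeR adjusted p = 2.53e-07). Mgst2 and Mgst3 did not pass, with log2 fold changes of 0.018 and -0.027.

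**Figure D2:**
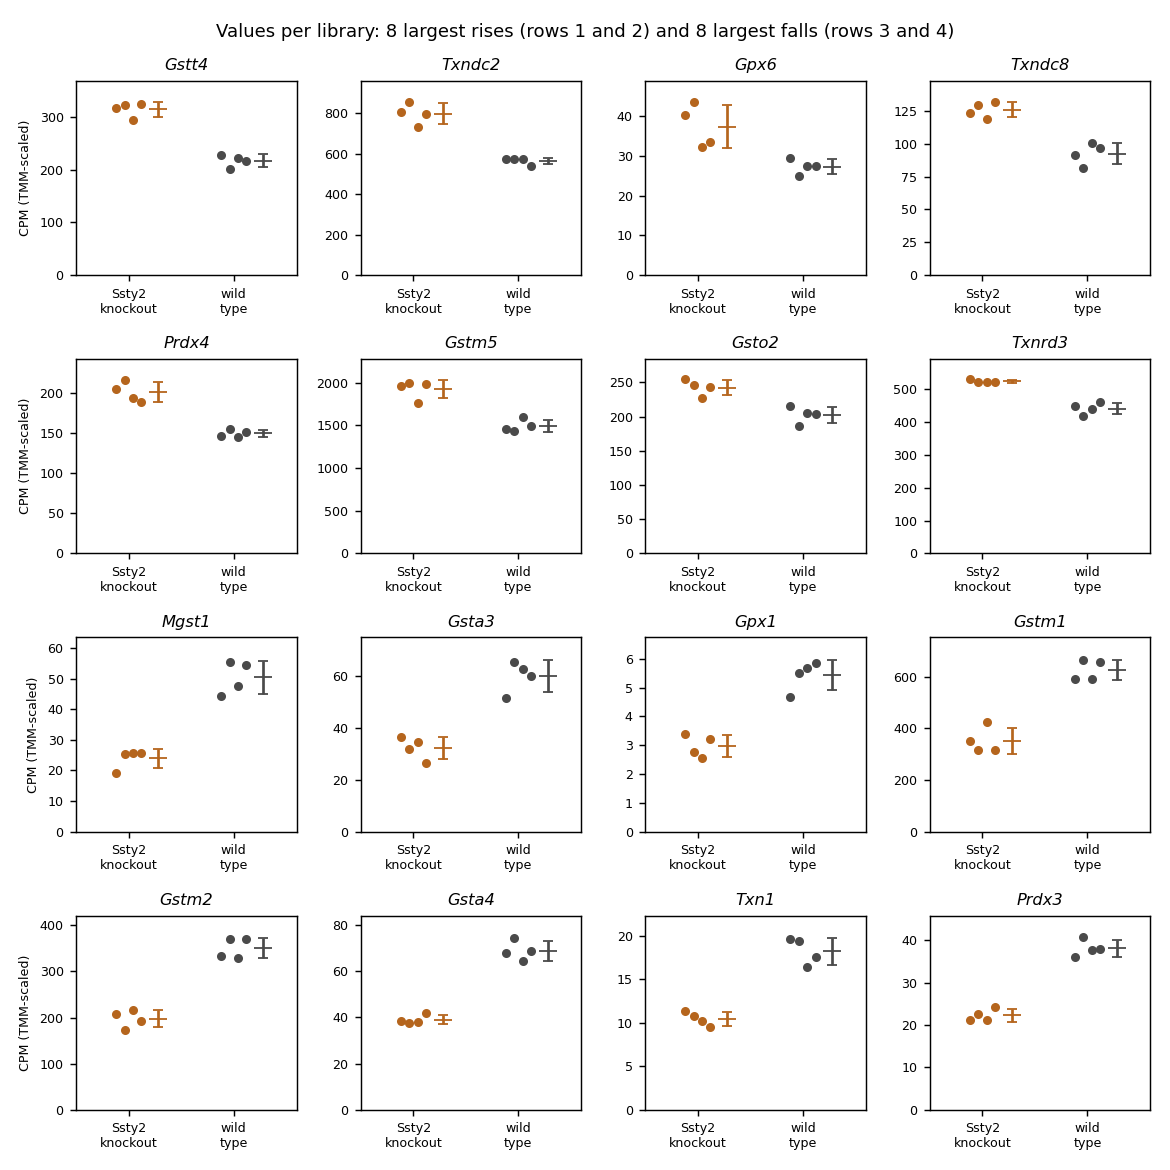
TMM-scaled CPM of the 8 called genes with the largest rise (upper rows) and the 8 with the largest fall (lower rows) among those with a mean log2 CPM of at least 1. Points are the 4 knockout (left) and 4 wild-type (right) libraries, bars are the mean ± SD, and all axes start at 0. The groups overlap in none of the 16 genes, which follows largely from picking the largest called changes. Over all tested genes 46.7% had groups without overlap.

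Peroxiredoxins reduce peroxides through a reactive cysteine, which in most of them, though not in Prdx6, thioredoxin restores. Here 1 of 6 was higher, 3 were lower and 2 did not pass, beside 26.2% called higher and 27.4% called lower over all tested genes. Prdx4 (ENSMUSG00000025289, chromosome X), the form of the endoplasmic reticulum, was the sole member on the X chromosome and had 205, 217, 194 and 189.9 CPM in the knockout libraries, against 147, 156, 146 and 152 CPM in the wild-type libraries. All knockout libraries lay above the wild-type libraries (log2 fold change 0.42, SE 0.055, edgeR adjusted p = 9.65e-06). Prdx1, the main cytosolic form, had 83.8, 89.01, 87.04 and 93.2 CPM in the knockout libraries, against 128, 148, 138 and 140.3 CPM in the wild-type libraries. The order was the reverse of that of Prdx4, again with no overlap (log2 fold change -0.65, SE 0.059, edgeR adjusted p = 2.38e-07). Prdx2, abundant in red blood cells, averaged 43.5 ± 2.97 CPM in knockout and 69.4 ± 3.80 CPM in wild type (log2 fold change -0.67, SE 0.067, edgeR adjusted p = 6.97e-07), and the mitochondrial Prdx3 had 21.1, 22.6, 21.2 and 24.2 CPM in the knockout libraries, against 36.03, 40.7, 37.6 and 38.04 CPM in the wild-type libraries. The knockout libraries of Prdx3 kept below the wild-type libraries by a margin larger than the range within either group (log2 fold change -0.78, SE 0.073, edgeR adjusted p = 3.90e-07).

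Prdx5 did not pass (log2 fold change -0.14, SE 0.063, edgeR adjusted p = 0.0783), although it did without knockout library 1 (adjusted p = 0.0338 by edgeR), with library totals (0.00102) and with the replicate number as a block (0.0397). Prdx6, a peroxiredoxin with phospholipase activity, had 113, 126, 129 and 116 CPM in the knockout libraries, against 123, 122, 119 and 125 CPM in the wild-type libraries. The wild-type libraries lay inside the range of the knockout libraries (log2 fold change -0.014, SE 0.056, edgeR adjusted p = 0.852). The row named Prdx6b, which the naming rule does not take in, was more abundant in both groups, at 584 ± 38.1 CPM in knockout and 448 ± 12.2 CPM in wild type, and rose (log2 fold change 0.38, SE 0.053, edgeR adjusted p = 1.96e-05). Per length of exon it reached 203 CPM per kb in knockout and 155 in wild type, beside 25.2 CPM per kb in knockout and 25.5 in wild type for Prdx6, and 2.42% of the words of Prdx6 occur in other genes. Summed over the 6 peroxiredoxins, the level was 553 ± 14.6 CPM in knockout and 603 ± 15.3 CPM in wild type.

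Thioredoxin is a small protein that reduces disulfides; Txn1 works in the cytosol and Txn2 in mitochondria. Txn1 (ENSMUSG00000028367, chromosome 4) had 11.4, 10.8, 10.2 and 9.55 CPM in the knockout libraries, against 19.7, 19.4, 16.4 and 17.6 CPM in the wild-type libraries. Knockout libraries were all below wild-type libraries (log2 fold change -0.80, SE 0.095, edgeR adjusted p = 4.47e-06). Txn2 averaged 65.7 ± 4.87 CPM in knockout and 61.3 ± 3.69 CPM in wild type, with overlapping groups (log2 fold change 0.10, SE 0.068, edgeR adjusted p = 0.226).

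Several proteins with a thioredoxin domain were higher instead. Txndc2 (ENSMUSG00000050612, chromosome 17), a thioredoxin of the fibrous sheath of the sperm tail, had 807, 856, 733 and 795 CPM in the knockout libraries, against 571, 572, 571 and 541 CPM in the wild-type libraries. Wild-type libraries 1 to 3 lay close together, wild-type library 4 was lower, and all knockout libraries were above them (log2 fold change 0.50, SE 0.053, edgeR adjusted p = 1.34e-06). Txndc8 (ENSMUSG00000038709, chromosome 4), a thioredoxin of spermatids linked to the Golgi and the forming acrosome, had 124, 129, 119 and 132 CPM in the knockout libraries, against 91.4, 81.6, 100.3 and 96.5 CPM in the wild-type libraries. The groups did not overlap (log2 fold change 0.44, SE 0.066, edgeR adjusted p = 3.58e-05). Txndc9, a relative of phosducin, averaged 90.1 ± 4.02 CPM in knockout and 81.4 ± 4.69 CPM in wild type and was just past the threshold (log2 fold change 0.15, SE 0.060, edgeR adjusted p = 0.0485). It lost the call without knockout library 1 (adjusted p = 0.0569 by edgeR), 2 (0.130) or 4 (0.0799), and without wild-type library 1 (0.156), 3 (0.0578) or 4 (0.129). It also lost the call with library totals (0.968), with at least 1 CPM required in 4 libraries (0.0586) and with no filter on low counts (0.106) by edgeR, and by the DESeq2 Wald test (0.0588), as adjusted p.

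Txndc5, a disulfide isomerase of the endoplasmic reticulum, was called lower, at 32.1 ± 1.56 CPM in knockout and 50.5 ± 2.19 CPM in wild type (log2 fold change -0.65, SE 0.066, edgeR adjusted p = 7.53e-07). Txndc11 and Txndc15 were also called lower, with log2 fold changes of -0.42 and -0.64. Txndc12, Txndc16 and Txndc17 did not pass, with log2 fold changes of 0.077, -0.086 and -0.24; without knockout library 4, Txndc17 passed as lower (adjusted p = 0.0164 by edgeR), as it did with library totals (0.0125). The 9 thioredoxin domain genes summed to 1177 ± 62.6 CPM in knockout and 933 ± 20.2 CPM in wild type, and the ranges of the sums did not overlap. Txndc2, at 797 ± 50.5 CPM in knockout and 564 ± 15.5 CPM in wild type, made up most of both sums and most of their difference.

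Thioredoxin reductases pass electrons from NADPH to thioredoxin through a selenocysteine next to their last residue. The final 27 coding bases are shown because all 3 genes share this in-frame TGA, in capitals, ahead of the true stop codon, so that the differences below are between genes with the same ending; the sequences are from GENCODE vM21 transcripts.
Txnrd1: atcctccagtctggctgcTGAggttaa
Txnrd2: cctactgtgactggttgcTGAggctaa
Txnrd3: attactcagaaaggctgcTGAggctag

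The 3 reductases went 3 ways. Txnrd3 (ENSMUSG00000000811, chromosome 6), which carries an added glutaredoxin domain and is made mainly in testis, had 532, 522, 522 and 523 CPM in the knockout libraries, against 448, 418, 439 and 459.8 CPM in the wild-type libraries. Its knockout libraries were tightly grouped above all wild-type libraries (log2 fold change 0.25, SE 0.047, edgeR adjusted p = 3.22e-04). The cytosolic Txnrd1 had 39.1, 36.4, 36.8 and 34.5 CPM in the knockout libraries, against 40.3, 34.1, 36.2 and 32.4 CPM in the wild-type libraries. Those groups overlapped (log2 fold change 0.039, SE 0.076, edgeR adjusted p = 0.688). The mitochondrial Txnrd2 had 4.24, 2.91, 3.79 and 4.07 CPM in the knockout libraries, against 6.79, 6.60, 5.84 and 6.06 CPM in the wild-type libraries, with every knockout library below every wild-type library (log2 fold change -0.76, SE 0.14, edgeR adjusted p = 3.55e-04).

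Per length of exon, the gene with the next highest level after Gstm5 was Gpx4, with 752 CPM per kb in knockout and 667 in wild type. Txndc2 followed with 401 CPM per kb in knockout and 284 in wild type and Gstt4 with 317 CPM per kb in knockout and 219 in wild type. In wild type Gstm1 ranked above both of these, at 238 CPM per kb in knockout and 424 in wild type. Txnrd3 had 185 CPM per kb in knockout and 156 in wild type and Txndc8 184 CPM per kb in knockout and 135 in wild type. Gstm2 had 118 CPM per kb in knockout and 209 in wild type, Gsto2 103 CPM per kb in knockout and 86.3 in wild type and Prdx4 95.7 CPM per kb in knockout and 71.3 in wild type.

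These 10 genes were the tested members above a mean of 50 CPM per kb, a line drawn after their values were seen, and 8 of them were called higher and 2 (Gstm1 and Gstm2) lower. Of the 43 at or below the line 2 were called higher (Gpx6 and Txndc9) and 22 lower. Over all tested genes 26.2% were called higher and 27.4% lower. Those shares were not computed on each side of the line, so whether the split is particular to these genes was not tested. Across the 53 genes the level per kb and the log2 fold change had a Spearman rho of 0.30, a description over genes that share libraries and are not independent replicates. Sod1, just below the line at 47.8 CPM per kb in knockout and 47.5 in wild type, did not pass.

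**Figure D3:**
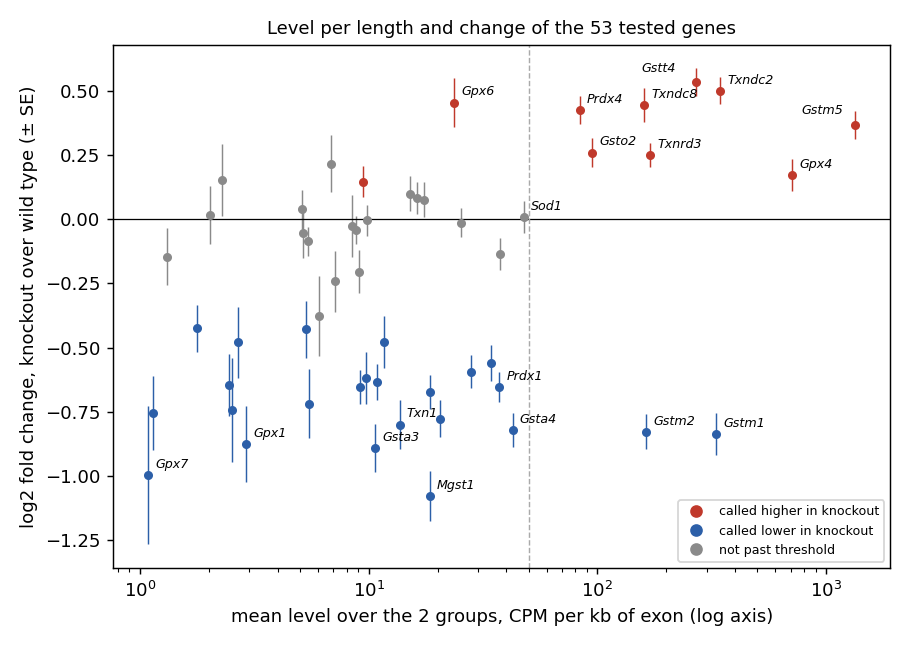
Mean level over both groups in CPM per kb of exon (log axis) against the log2 fold change, knockout over wild type, with bars of 1 SE, for the 53 tested genes. The dashed line, drawn after the values were seen, stands at 50 CPM per kb. Right of it 8 of the 10 genes are called higher (red), and left of it 22 of the 43 are called lower (blue). Over all tested genes, whatever their level, 26.2% were called higher and 27.4% lower.

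Ratios of raw counts within a library do not depend on scaling between libraries. In each of 6 pairs, chosen after their values were seen and so given without a test, a more abundant gene that was called higher was divided by a related gene. The Txndc2 to Txn1 ratio was 70.9, 79.2, 72.01 and 83.3 in the knockout libraries, against 29.1, 29.5, 34.9 and 30.7 in the wild-type libraries. The Gstm5 to Gstm1 ratio was 5.61, 6.37, 4.17 and 6.31 in the knockout libraries, against 2.47, 2.16, 2.70 and 2.28 in the wild-type libraries. In both pairs each knockout library had the larger ratio, with means of 76.3 ± 5.92 against 31.05 ± 2.63 for Txndc2 to Txn1 and 5.61 ± 1.02 against 2.40 ± 0.232 for Gstm5 to Gstm1 (SD, n = 4 each).

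Likewise the Prdx4 to Prdx1 ratio was 2.45, 2.44, 2.23 and 2.04 in the knockout libraries, against 1.15, 1.05, 1.06 and 1.08 in the wild-type libraries. The Gstt4 to Gstt1 ratio was 91.7 ± 2.92 against 45.9 ± 6.02 and the Gpx4 to Gpx1 ratio 438 ± 28.3 against 213 ± 30.96, knockout against wild type, and in these 3 pairs too the groups did not overlap. The Txnrd3 to Txnrd1 ratio differed least, at 14.3 ± 0.650 against 12.4 ± 1.29, and the lowest knockout library (13.6) lay under the highest wild-type library (14.2). In every pair but Txnrd3 to Txnrd1 the related gene was itself called lower, so the separation of the ratios follows largely from those calls. A ratio shows that the 2 genes of a pair changed unequally and not which of them changed.

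**Figure D4:**
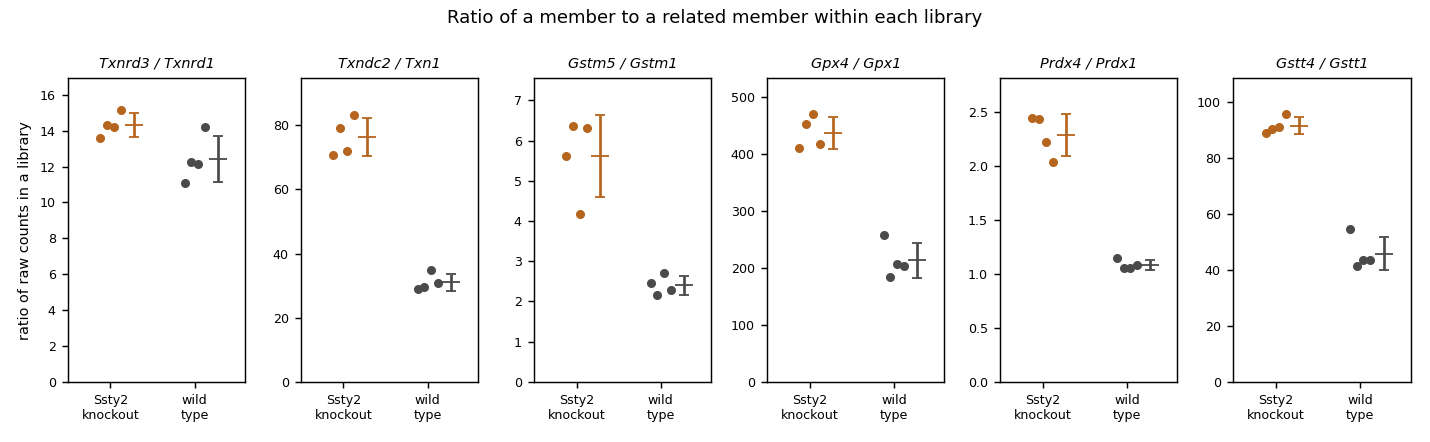
Ratio of raw counts of 2 related genes within each of the 4 knockout (left) and 4 wild-type (right) libraries, with the mean ± SD; each axis starts at 0. The knockout libraries stand above all wild-type libraries in 5 pairs, and in Txnrd3 / Txnrd1 the groups overlap.

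Some neighbouring members differed in call and others had the same call. Over all tested genes 26.2% were called higher and 27.4% lower, and how often neighbours differ among all genes was not tested. Along chromosome 3 the mu-class genes were ordered Gstm5, Gstm7, Gstm6, Gstm3, Gstm2, Gstm1 and Gstm4 in the GENCODE vM21 annotation, with Gstm5 on the plus strand and the others on the minus strand. Gstm5 was called higher and its neighbours Gstm7, Gstm6, Gstm2 and Gstm1 lower. On chromosome 10 Gstt3, Gstt1, Gstt4 and Gstt2 followed each other with no other annotated gene between, and Gstt4 was called higher while Gstt1 was called lower. Txn1 and Txndc8 were adjacent on chromosome 4 and were called in opposite directions. Gsto1 and Gsto2 were adjacent on chromosome 19, where Gsto2 alone passed, although both log2 fold changes were positive (0.15 and 0.26). Gsta4 and Gsta2, near each other on chromosome 9 with 9 annotated genes between, were both called lower.

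Many genes of these systems are known to answer to the factor NRF2 through the antioxidant response element. Its core, spelled TGACNNNGC, was searched on both strands of RefSeq promoters, from 250 bases before to 50 after each start (GRCm38.p6). Of the 55 genes 50 had such a promoter, and 10 of them (20%) held the core, beside 16.0% of tested genes with a promoter and 12.4% of all promoters. The core was found in 2 of 10 genes called higher (Gstm5 and Txndc2), in 6 of 22 called lower (Gsta3, Gstm7, Mgst1, Prdx1, Txndc11 and Txndc5) and in 2 of 18 of the rest (Sod1 and Txnrd1). A GC box, spelled GGGCGG, was found in 37 of 50 (74.0%), beside 57.4% of tested genes with a promoter, and the CRE core, spelled TGACGT, in 6 of 50 (12%), beside 11.2%; a CRE core can overlap the antioxidant response core, since both begin with TGAC. A match is a description of letters and not a site.

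Promoters of Gstm5, which rose, and of Gstm1 and Mgst1, which fell, are shown because they set a gene with the core from each direction beside one without it. The Gstm5 promoter (chr3:107895604-107895903, plus strand) holds it on the plus strand of the gene from 42 bases before the start, and the Mgst1 promoter (chr6:138140277-138140576, plus strand) on the opposite strand, in a run that begins 56 bases before the start; the Gstm1 promoter (chr3:108017924-108018223, minus strand) has none in this window. The sequences run 5′ to 3′ along the gene, with the core in capitals, and for Gstm1 and Mgst1 they are the first of 2 listed starts.
Gstm5: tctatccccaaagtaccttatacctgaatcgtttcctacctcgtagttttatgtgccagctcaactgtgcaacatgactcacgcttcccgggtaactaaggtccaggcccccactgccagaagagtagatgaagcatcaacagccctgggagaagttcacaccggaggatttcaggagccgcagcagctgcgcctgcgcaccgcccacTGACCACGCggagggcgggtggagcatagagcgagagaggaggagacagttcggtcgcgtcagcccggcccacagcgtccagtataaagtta
Mgst1: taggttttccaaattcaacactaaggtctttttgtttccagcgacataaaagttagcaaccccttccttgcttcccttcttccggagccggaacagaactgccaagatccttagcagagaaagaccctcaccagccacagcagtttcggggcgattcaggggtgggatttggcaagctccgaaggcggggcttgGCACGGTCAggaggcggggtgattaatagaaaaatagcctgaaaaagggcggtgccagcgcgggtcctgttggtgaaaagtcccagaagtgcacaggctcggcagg
Gstm1: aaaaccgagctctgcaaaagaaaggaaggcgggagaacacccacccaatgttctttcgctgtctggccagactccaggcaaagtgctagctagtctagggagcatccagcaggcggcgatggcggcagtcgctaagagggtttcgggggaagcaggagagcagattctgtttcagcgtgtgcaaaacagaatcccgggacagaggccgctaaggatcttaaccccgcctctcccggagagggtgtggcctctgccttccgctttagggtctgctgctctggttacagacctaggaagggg

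Beyond these families, 104 genes that build, regenerate or depend on glutathione and thioredoxin were placed in 9 lists. Of the 100 tested, 19 were called higher and 45 lower, with a median log2 fold change of -0.18, against the 26.2% higher and 27.4% lower over all tested genes. With library totals the counts were 7 and 56, a setting for which the shares over all tested genes were not computed. By the main test, the counts of each list below stand beside the same 26.2% and 27.4% over all tested genes.

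A list of 11 genes held suppliers of NADPH, on which both systems draw, and other enzymes of the pentose phosphate pathway. Of these 11, 8 were called lower and 1 higher. Pgd, of the pentose phosphate pathway, averaged 24.1 ± 2.99 CPM in knockout and 47.5 ± 1.85 CPM in wild type (log2 fold change -0.98, SE 0.082, edgeR adjusted p = 1.20e-07). Tkt, its transketolase, averaged 24.6 ± 1.76 CPM in knockout and 45.5 ± 3.11 CPM in wild type (log2 fold change -0.88, SE 0.076, edgeR adjusted p = 1.47e-07) and Taldo1, its transaldolase, 19.4 ± 1.54 CPM in knockout and 35.1 ± 2.18 CPM in wild type (log2 fold change -0.86, SE 0.079, edgeR adjusted p = 3.04e-07). The one gene called higher was G6pd2, a retrogene copy of glucose-6-phosphate dehydrogenase, at 89.7 ± 10.9 CPM in knockout and 52.5 ± 0.308 CPM in wild type (log2 fold change 0.77, SE 0.074, edgeR adjusted p = 4.86e-07), while the X-linked parent G6pdx averaged 8.52 ± 0.583 CPM in knockout and 14.6 ± 0.815 CPM in wild type (log2 fold change -0.78, SE 0.096, edgeR adjusted p = 5.90e-06).

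Of 4 tested genes for glutathione synthesis and cystine uptake 3 were called lower. These were Gclc and Gclm, the catalytic and modifier subunits of the rate-limiting ligase, and the transporter heavy chain Slc3a2. Gclc averaged 34.9 ± 2.27 CPM in knockout and 45.5 ± 3.33 CPM in wild type (log2 fold change -0.38, SE 0.073, edgeR adjusted p = 3.87e-04) and Gclm 31.1 ± 1.05 CPM in knockout and 36.5 ± 2.09 CPM in wild type (log2 fold change -0.23, SE 0.068, edgeR adjusted p = 0.00891). Slc3a2 averaged 106 ± 7.88 CPM in knockout and 171 ± 6.71 CPM in wild type (log2 fold change -0.69, SE 0.060, edgeR adjusted p = 1.62e-07). In the breakdown list of 11 tested genes 2 were higher and 1 lower. Dpep3, a dipeptidase of the testis, averaged 289 ± 12.8 CPM in knockout and 248 ± 12.4 CPM in wild type (log2 fold change 0.22, SE 0.053, edgeR adjusted p = 0.00239), and Oplah, which opens oxoproline, 153 ± 11.2 CPM in knockout and 128 ± 13.7 CPM in wild type (log2 fold change 0.26, SE 0.074, edgeR adjusted p = 0.00699). Both lost the call with library totals, at adjusted p values of 0.189 and 0.155 by edgeR. The renal-type dipeptidase Dpep1 averaged 6.96 ± 0.417 CPM in knockout and 10.5 ± 0.719 CPM in wild type (log2 fold change -0.59, SE 0.11, edgeR adjusted p = 2.16e-04).

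Glutaredoxins and other thioredoxin-fold partners were split, with 8 higher and 8 lower of 19. Pdilt, a testis-specific relative of protein disulfide isomerase, averaged 190.1 ± 14.4 CPM in knockout and 142 ± 10.7 CPM in wild type (log2 fold change 0.43, SE 0.066, edgeR adjusted p = 5.64e-05). Nxnl1 and Nxnl2, nucleoredoxin-like proteins known from the retina, averaged 1.33 ± 0.275 CPM in knockout and 3.05 ± 0.338 CPM in wild type and 3.53 ± 0.496 CPM in knockout and 6.51 ± 0.783 CPM in wild type, and both fell (-1.17 and -0.88 on the log2 scale). In the list of regulators and targets of NRF2, 6 of 9 were lower and 1 was higher. The higher one was the constitutive Hmox2, listed beside Hmox1, and is not read as a rise of an NRF2 target. The haem oxygenases parted, with the constitutive Hmox2 at 490.1 ± 11.7 CPM in knockout and 367 ± 18.5 CPM in wild type (log2 fold change 0.42, SE 0.050, edgeR adjusted p = 4.91e-06) and the inducible Hmox1 at 8.14 ± 0.493 CPM in knockout and 14.3 ± 1.01 CPM in wild type (log2 fold change -0.81, SE 0.098, edgeR adjusted p = 5.29e-06). The glutathione conjugate exporter Abcc1 fell by 0.51 on the log2 scale.

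Of 11 genes for selenoprotein synthesis and selenium transport 1 was higher and 4 were lower. The selenium carrier Selenop averaged 58.3 ± 7.37 CPM in knockout and 106 ± 14.6 CPM in wild type (log2 fold change -0.86, SE 0.097, edgeR adjusted p = 2.37e-06), and Trnau1ap and Secisbp2l fell by 0.77 and 0.57 on the log2 scale. Of 12 other selenoproteins 1 was higher and 6 were lower. Selenov, which is expressed in testis, averaged 190.0 ± 11.8 CPM in knockout and 131 ± 11.8 CPM in wild type (log2 fold change 0.54, SE 0.067, edgeR adjusted p = 6.64e-06), and the methionine sulfoxide reductase Msrb1 averaged 4.87 ± 0.584 CPM in knockout and 9.96 ± 0.382 CPM in wild type (log2 fold change -1.03, SE 0.12, edgeR adjusted p = 3.19e-06). Selenoh fell by 0.71 on the log2 scale.

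In the list of sulfoxide repair, the SOD1 copper chaperone and glyoxalase, 1 of 7 was higher and 3 were lower. Adh5, which also breaks down nitrosoglutathione, averaged 21.7 ± 0.131 CPM in knockout and 43.2 ± 2.67 CPM in wild type (log2 fold change -0.99, SE 0.069, edgeR adjusted p = 1.57e-08). The glyoxalase Glo1 and the sulfoxide reductase Msra fell by 0.74 and 0.52 on the log2 scale. Among 16 tested relatives of the transferase folds 4 were higher and 6 lower. The metaxins of the outer mitochondrial membrane parted, with Mtx1 at 127 ± 3.74 CPM in knockout and 99.3 ± 5.60 CPM in wild type (log2 fold change 0.36, SE 0.056, edgeR adjusted p = 6.06e-05) and Mtx2 at 38.2 ± 2.09 CPM in knockout and 52.8 ± 2.49 CPM in wild type (log2 fold change -0.47, SE 0.066, edgeR adjusted p = 2.20e-05). The channel-like Clic1 fell by 0.56 on the log2 scale.

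**Figure D5:**
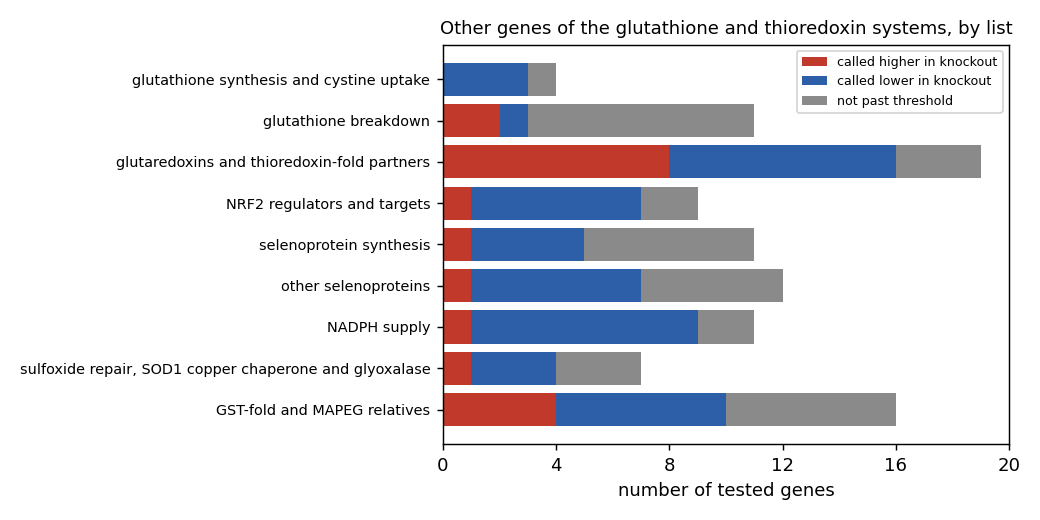
Number of tested genes called higher (red) or lower (blue) in knockout, or not past the threshold (grey), in each of 9 lists of other genes of the glutathione and thioredoxin systems. The list headed NADPH supply, which takes in other enzymes of the pentose phosphate pathway, has 8 lower of 11. The glutaredoxin list has 8 higher and 8 lower of 19. Over all tested genes 26.2% were called higher and 27.4% lower.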

How the data were processed

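Total RNA of adult testis was sequenced in 4 Ssty2 knockout and 4 wild-type libraries, prepared with a TruSeq RNA kit per the labels' protocols. The authors deposited unnormalized read counts per Ensembl gene for each library. Per the submitters' processing notes, the tools were STAR, featureCounts, FastQC, Trimmomatic and DESeq2 and the build mm39; the sources used here do not give versions, settings, annotation, strand setting or the treatment of multiply mapping reads, so copies with near-identical sequence are uncertain. Symbols (52073 rows), exon lengths and gene order came from GENCODE vM21 (GRCm38), whose build differs; promoters came from RefSeq (GRCm38.p6).

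Genotype was the only term of a quasi-likelihood fit to the counts (edgeR 4.0.16, R 4.3.3), after filterByExpr (minimum count 10, minimum total 15) and TMM scaling, on all 8 libraries. P-values were adjusted by Benjamini-Hochberg over 21952 genes and called under 0.05. SE is the absolute log2 fold change over the square root of F. CPM values are TMM-scaled, as mean ± SD with n = 4. The limit that a count of 0 allows was taken as 3 counts and covers counting error only. The fit was tested on simulated counts. The share of a gene's 31-base words found in transcripts of other genes measured possible read sharing. No pair of libraries within a group agreed within sampling noise. DESeq2 1.42.0, other scalings, other filters, a replicate block and leaving out each library were tried as alternatives.

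The genes and all lists were chosen with earlier results of these data known. The genes named with values are the 8 largest called rises and falls with mean log2 CPM of at least 1, a set list of well-known members whatever their change, and the 3 genes with the smallest p in each list of other genes; any other gene named, and every pair of genes compared, was chosen after its values were seen.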

Additional observations from a re-analysis of the deposited data

Results flagged for a closer look

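In 7 of 56 groups of 4 libraries, 1 library stood apart from the other 3, by a gap that made up most of the group's range (Dixon's 95% critical value). The groups were the knockout and the wild-type libraries of members named by rule. Chance alone gives about 1 such group in 20 where groups are independent, but these genes share libraries. Knockout library 3 was low for Gstm5, at 1762 CPM beside 1966 to 2000 CPM in the other knockout libraries, and high for Gstp1, at 17.4 CPM beside 14.1 to 14.5 CPM. Knockout library 1 was low for Mgst1, at 19.2 CPM beside 25.2 to 25.6 CPM, and high for Txnrd3, at 532.0 CPM beside 521.9 to 522.9 CPM. The Txnrd3 gap was small beside its level, with a coefficient of variation of 0.92% among knockout libraries. Knockout library 4 was high for Gsta4, at 42.0 CPM beside 37.8 to 38.3 CPM. Wild-type library 4 was low for Txndc2, at 541 CPM beside 571 to 572 CPM, and wild-type library 2 was low for Gpx4, at 1018 CPM beside 1177 to 1205 CPM. Of these genes Gpx4 alone lost its call when the library that stood apart was left out (edgeR adjusted p = 0.109).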

How the results depend on the processing

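Of the 53 tested genes 42 had the same call under all 14 alternatives, and 31 of the 34 called genes kept their call throughout (7 higher and 24 lower), the exceptions being Gpx4, Gsto2 and Txndc9; no called value changed sign. Txndc9 lost the call in 10 alternatives, with adjusted p values from 0.0569 to 0.968 by edgeR or DESeq2, and Gpx4 in 5. With library totals in place of TMM, 7 of the other pathway genes were called higher rather than 19, the median log2 fold change of the tested members was -0.35 rather than -0.20, and Gpx3, Gsr, Gss, Prdx5, Prdx6, Sod2, Txndc16 and Txndc17 also passed as lower, which gave 32 lower rather than 24. With no filter on low counts that median was -0.25, and leaving out each library in turn gave -0.16 to -0.25. Among the 33 members with under 5% of their words in other genes, an alternative chosen after seeing the data, 7 were called higher and 15 lower; fewer genes enter that count by construction. With the replicate block 10 members were called higher and 26 lower, and 20 and 46 of the other pathway genes. Gsr and Prdx5 were the added members. The main test called 26.2% of all tested genes higher and 27.4% lower, and these shares were not computed for the alternatives. Libraries with the same number had correlated deviations of 0.141, 0.0583, 0.0978 and 0.0233. Knockout libraries 1 to 3 each correlated best with the wild-type library of their number, and knockout library 4 with wild-type library 2 (0.0326). These correlations were weak, and the main fit did not take the numbers as pairs. Whether the numbers mark a shared factor was not tested. Depth limits the genes under 1 CPM, which rest on few counts.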
